A study of Mus musculus with 2 samples.

Results

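The genes described here encode the enzymes and carriers of central glucose metabolism: glycolysis, the pentose phosphate pathway, the entry of pyruvate into the mitochondrion, and the citrate cycle. They were chosen by symbol, and 49 of the 55536 genes of GENCODE M21 matched. Glycolysis supplied 23 members, the pentose phosphate pathway 7, pyruvate entry 7 and the citrate cycle 12. All 49 were found in both libraries, and of the 2 identifiers annotated as Aldoa the one with reads was used.

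Polyadenylated RNA came from regulatory T cells labelled as activated, which are CD4 T cells that express the transcription factor Foxp3 and restrain immune responses. The donor was a male Foxp3CreERT2 x Rosa26YFP mouse, 4 months of age, which carries a tamoxifen-inducible Cre recombinase at the Foxp3 locus and, at Rosa26, a reporter for yellow fluorescent protein. Its labels name bone marrow haematopoietic cells as the origin. The route of activation, the tissue sampled and any tamoxifen given are not stated there. The 2 libraries, of fragments of 100 to 300 bases, are technical replicates 1 and 2 of biological replicate 1, so they form 1 group and the design holds no contrast between conditions. Each mean ± SD below is over these 2 libraries, and each p-value speaks only of the 2 libraries.

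As background, glycolysis splits glucose into pyruvate in the cytosol, and lactate dehydrogenase then converts pyruvate to lactate or the reverse. Pyruvate that enters the mitochondrion is turned into acetyl-CoA by the pyruvate dehydrogenase complex and oxidised in the citrate cycle. The pentose phosphate pathway branches off at glucose 6-phosphate and yields NADPH and ribose. Several steps are served by isozymes, which are enzymes from different genes that catalyse the same reaction. T cells are known to raise glycolysis on activation, and regulatory T cells are known to rely on mitochondrial oxidation as well.

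Estimated gene reads came to 15076048 in library 1 and 14635787 in library 2, and the members held 0.796% and 0.881% of them. The 5 regulatory T cell markers (Foxp3, Il2ra, Ctla4, Ikzf2, Tnfrsf18) had mean levels from 22.4 TPM for Foxp3 to 580 TPM for Tnfrsf18. Of the Foxp3 TPM, 75.3% and 88.6% was on a transcript annotated as a target of nonsense-mediated decay, and coding transcripts held 5.88 and 2.37 TPM. TPM is a transcript level per unit of length, scaled to the same sum in every library. The 5 T cell markers summed to 5573 and 5983 TPM. By contrast the 4 B cell markers summed to 1.93 and 2.17 TPM. The 6 markers of monocytes, macrophages or neutrophils summed to 1.5 and 3.47 TPM with Cd14, S100a9 and Mpo at 0, the 3 of dendritic cells to 3.26 and 2.62 with Itgax at 0, and the 3 of natural killer cells to 1.63 and 2.15 with Ncr1 at 0. The 3 stromal or epithelial markers summed to 1.32 and 1.57 TPM with Cxcl12 at 0. Erythroid markers summed to 13.1 and 11.6 TPM, and the cytotoxic pair Cd8a and Cd8b1 to 11.4 and 15.6 TPM, mostly Cd8b1. In bulk RNA, fewer cells of a type and less RNA per cell cannot be told apart.

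Nearly every member was expressed. In both libraries 48 of 49 members were at 1 TPM or more, against 46.2% of the 22028 protein-coding genes. Hk3 was the exception, at 0.31 and 0.54 TPM from 8 and 11 reads. At 10 TPM or more in both libraries there were 41 members, against 29.5% of protein-coding genes, and at 100 TPM or more there were 16, against 5.25%. The median member stood at 5.97 ± 0.1 on the log2(TPM + 1) scale, beside 4.25 ± 0.045 for the 10171 protein-coding genes at 1 TPM or more. These shares describe the list and were not tested.

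Median levels differed between the arms as listed. The citrate cycle had the highest median, 6.72 ± 0.140 on the log2(TPM + 1) scale, and all 12 of its members were at 10 TPM or more in both libraries. Pyruvate entry followed at 6.06 ± 0.014, then glycolysis at 5.64 ± 0.137 and the pentose phosphate pathway at 5.43 ± 0.137. In library 1 glycolysis and the pentose phosphate pathway were not set apart, at 5.54 and 5.53. Glycolysis spanned the whole range of the list, from Hk3 to Ldha, and 7 of its 23 members were under 10 TPM in at least 1 library. In the order of the 49 mean levels, 33 of the 48 neighbouring pairs overlapped between their libraries, so most neighbours cannot be ordered.

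**Figure D1:**
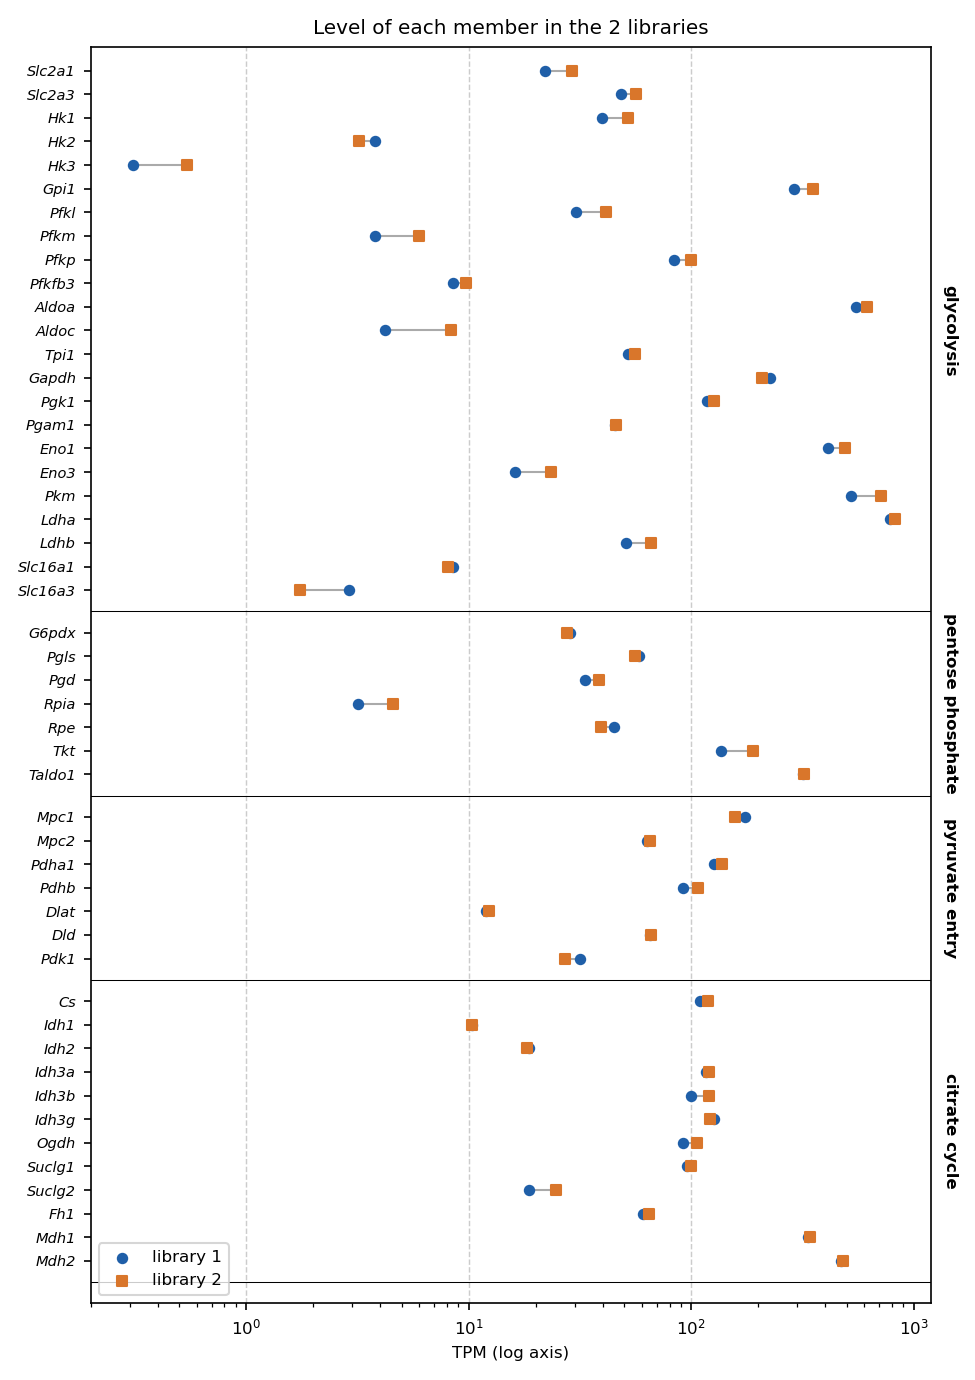
TPM of each of the 49 members in library 1 (circles) and library 2 (squares) on a log axis, grouped by arm, with dashed lines at 1, 10 and 100 TPM. The citrate cycle genes lie between 10.3 and 481 TPM, whereas glycolysis genes run from 0.31 TPM for Hk3 to 827 TPM for Ldha.

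Ldha was the most abundant member. It encodes the muscle-type subunit of lactate dehydrogenase and lies at chr7:46841475-46855627 on the plus strand of mm10. Its level was 783 TPM in library 1 and 827 TPM in library 2, and it ranked 140 of 22028 protein-coding genes by mean TPM. Pkm, the pyruvate kinase gene of most tissues, came next at 525 and 714 TPM, and overlapped Aldoa, which encodes the main aldolase, at 553 and 615 TPM. Mdh2, the mitochondrial malate dehydrogenase, stood at 473 and 481 TPM, within the range of the enolase gene Eno1 at 411 and 492 TPM. These 5 genes and Mdh1, Gpi1, Taldo1 and Gapdh were the 9 members above 200 TPM in both libraries.

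Glucose uptake rested on a pair of transporters. Slc2a3, which encodes the high-affinity carrier GLUT3, was at 48.5 TPM in library 1 and 56.3 TPM in library 2. Slc2a1, which encodes GLUT1, was at 22.01 and 29.2 TPM. In each library Slc2a3 was higher, by a TPM ratio of 2.20 and 1.93 over all transcripts and of 6.17 and 5.03 on protein-coding ones. Slc2a4, the insulin-responsive GLUT4, had no reads (a limit of 0.187 and 0.198 TPM at 3 reads), and Slc2a2, the liver and islet GLUT2, had 1 and 5 reads. Slc2a9, counted here among other transporters, was at 8.55 and 8.79 TPM.

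Hexokinase, which traps glucose as glucose 6-phosphate, was mostly Hk1. Its level was 39.9 TPM in library 1 and 52.3 TPM in library 2. Hk2, the isozyme known to be induced by growth signals, was at 3.81 and 3.22 TPM from 127 and 96 reads. Hk1 held 90.6% and 93.3% of the family's TPM, Hk2 8.67% and 5.75%, and Hk3 0.705% and 0.964%. Outside the list, the related Hkdc1 had 3 and 2 reads.

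The next steps were uneven. Gpi1, which interconverts glucose 6-phosphate and fructose 6-phosphate, was at 290.3 and 354 TPM. Phosphofructokinase, the committed step of glycolysis, was shared by the platelet-type gene Pfkp at 84.1 and 100.2 TPM and the liver-type gene Pfkl at 30.5 and 41.6 TPM. Pfkm, the muscle type, was at 3.78 and 5.99 TPM. Pfkp therefore held 71.0% and 67.8% of the family's TPM. Pfkfb3, which makes fructose 2,6-bisphosphate, the activator of phosphofructokinase, was at 8.49 and 9.75 TPM.

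From aldolase to lactate the steps were of very unequal level. Aldoa held 99.2% and 98.7% of the aldolase TPM, and Aldoc, the brain type, was at 4.23 and 8.37 TPM. Tpi1, which interconverts the triose phosphates, was only at 52.1 and 56.2 TPM, so that Aldoa exceeded it by a ratio of 10.6 and 10.9. Gapdh, the glyceraldehyde 3-phosphate dehydrogenase, was at 227 and 207 TPM, Pgk1, the phosphoglycerate kinase, at 118 and 127 TPM, and Pgam1, the phosphoglycerate mutase, at 45.6 and 46.1 TPM. These 3 genes have copies elsewhere that share stretches of their sequence, so their estimates depend on how reads were divided. Ldha exceeded Pgam1, the lowest of the steps below aldolase, by a TPM ratio of 17.2 and 17.96.

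Enolase and lactate dehydrogenase were each led by 1 gene of the list. Eno1 held 96.2% and 95.4% of the TPM of the 2 listed enolases, and Eno3, the muscle type, was at 16.2 and 23.6 TPM. Ldha held 93.9% and 92.6% of the lactate dehydrogenase TPM. Ldhb, the heart-type subunit, was at 51.1 and 66.2 TPM, so the Ldha to Ldhb ratio was 15.3 in library 1 and 12.5 in library 2. Of the neuronal Eno2, outside the list, 58 and 114 reads were estimated, and Eno4 had none (a limit of 0.120 and 0.127 TPM at 3 reads). Ldhc, the testis type, had 2 reads in library 1 and none in library 2.

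Transport of lactate and other monocarboxylates was the lowest step of the glycolysis arm by summed TPM, apart from Pfkfb3. Slc16a1, which encodes MCT1, was at 8.47 TPM in library 1 and 8.10 TPM in library 2. Slc16a3, which encodes MCT4, was at 2.91 and 1.74 TPM from 73 and 46 reads. Slc16a1 held 74.4% of the pair's TPM in library 1 and 82.3% in library 2. The related Slc16a7 had 1 read in library 1 and none in library 2.

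**Figure D2:**
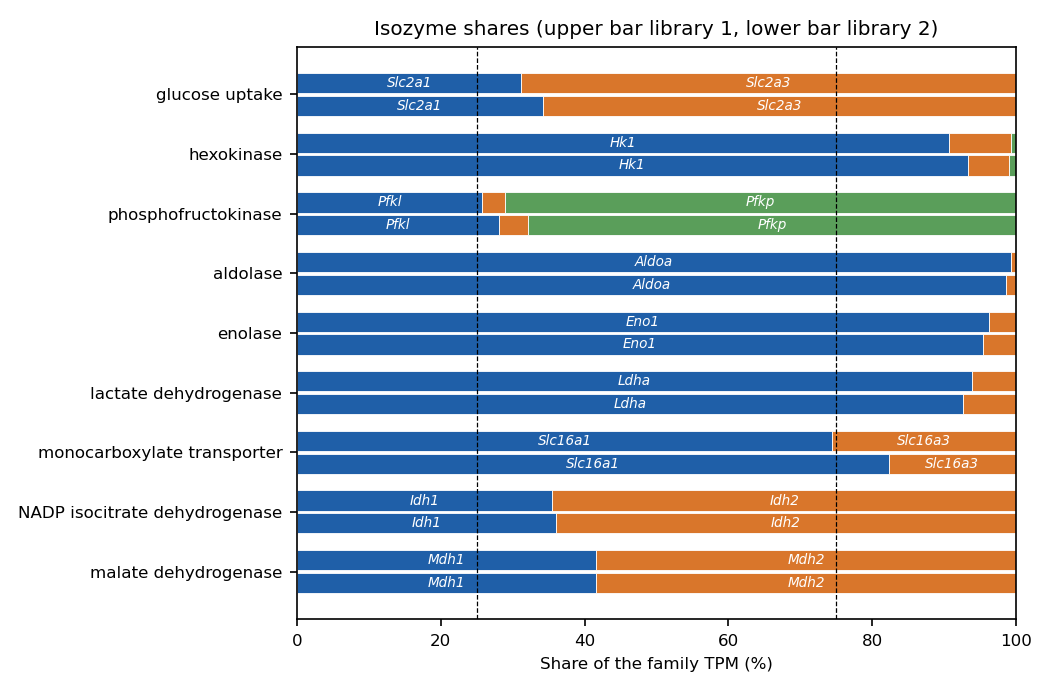
Share of the TPM of each isozyme family held by its members, with library 1 as the upper and library 2 as the lower bar of each family, and dashed lines at 25% and 75%. Segments follow the order of the list; the unlabelled ones are Hk2 and Hk3, Pfkm, Aldoc, Eno3 and Ldhb. Hk1, Aldoa, Eno1 and Ldha hold over 90% in both libraries, while the malate dehydrogenases are nearest to equal.

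In 4 of the 9 families with 2 or more listed members, 1 member held 75% or more of the TPM in both libraries: hexokinase, aldolase, enolase and lactate dehydrogenase. The same member led each of the 9 families in both libraries and under every alternative run. Scaled by reads and not per length, 6 families passed, with glucose uptake and the monocarboxylate transporters added. Counting protein-coding transcripts only also gave 6. In the whole-number table of GENCODE M4 the count was 4, but Eno1 fell short at 64.05% in its lower library and Slc16a1 passed at 76.3%.

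The listed isozymes of a family differ enough in sequence to be set apart by short reads, which does not hold for the unlisted Eno1b described further on. No stretch of 50 bases, the read length implied by the length and effective length columns, was identical between listed members of 1 family. Over the 13 pairs, the closest coding stretches of 50 bases differed at 3 to 21 positions, with a median of 5. Shown here are the closest stretches of Ldha and Ldhb and of Aldoa and Aldoc, because these pairs have the most abundant leading genes of the 4 families. Capitals mark the positions at which the paired stretches differ, 6 for lactate dehydrogenase and 4 for aldolase. All are coding sequence, 5′ to 3′ along the transcript, from GENCODE M21 on mm10. The Ldha stretch is chr7:46850249-46850298 (plus strand) and the Ldhb stretch chr6:142498558-142498607 (minus strand), each within 1 exon. The Aldoa stretch spans chr7:126796298-126796641 (minus strand) and the Aldoc stretch chr11:78325163-78325331 (plus strand), each across an intron.
Ldha: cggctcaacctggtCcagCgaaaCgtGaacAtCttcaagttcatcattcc
Ldhb: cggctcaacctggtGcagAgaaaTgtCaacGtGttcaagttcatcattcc
Aldoa: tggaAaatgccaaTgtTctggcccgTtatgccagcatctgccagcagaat
Aldoc: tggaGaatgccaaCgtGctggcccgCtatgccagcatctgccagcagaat

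Pkm, at chr9:59656368-59679375 on the plus strand, yields 2 forms of pyruvate kinase by including 1 of 2 mutually exclusive exons. The M1 form is known from muscle and brain and the M2 form from proliferating cells, including activated lymphocytes. In the annotation the M1 exon is exon 9 of transcript Pkm-202 (chr9:59675029-59675195) and the M2 exon is exon 9 of Pkm-201 (chr9:59675568-59675734). Both are wholly coding and 167 bases long. They differ at 64 positions, marked by capitals, and are identical at 61.7%. They are shown because they define the 2 forms; the transcripts that carry them also differ in length, at 2432 bases for Pkm-201 and 2041 for Pkm-202.
M1 exon: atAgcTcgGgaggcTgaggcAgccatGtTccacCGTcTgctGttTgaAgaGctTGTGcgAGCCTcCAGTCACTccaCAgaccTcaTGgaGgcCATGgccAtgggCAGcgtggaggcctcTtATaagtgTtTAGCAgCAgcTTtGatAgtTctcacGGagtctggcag
M2 exon: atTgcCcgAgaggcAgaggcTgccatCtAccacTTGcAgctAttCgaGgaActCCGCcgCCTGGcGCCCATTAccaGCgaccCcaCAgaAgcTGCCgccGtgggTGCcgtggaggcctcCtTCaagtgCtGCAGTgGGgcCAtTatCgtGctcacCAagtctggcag

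The M2 form made up nearly all of the assignable Pkm transcripts. Pkm-201, with the M2 exon, was at 413 TPM in library 1 and 579 TPM in library 2. Pkm-202, with the M1 exon, was at 11.8 and 25.5 TPM from 292 and 595 reads. Of the TPM on transcripts with either exon, 97.2% and 95.8% belonged to M2, or 96.5% ± 1.02 (SD, n = 2). By estimated reads the shares were 97.7% and 96.5%. The short transcript Pkm-211, which holds neither exon, took a further 16.6% and 12.9% of the gene's TPM.

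In the oxidative branch of the pentose phosphate pathway, which makes NADPH, the 3 enzymes were within a narrow range. G6pdx, the X-linked gene of the first and committed enzyme, was at 28.5 and 27.6 TPM. Pgls, the lactonase, was at 58.5 and 55.9 TPM, and Pgd, the second NADPH-producing dehydrogenase, at 33.3 and 38.4 TPM. G6pd2, on another chromosome, shared 199 stretches of 50 bases with G6pdx and had 4.4 and 2.2 estimated reads. It is named after its value was seen.

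Members of the non-oxidative branch, which rearranges sugar phosphates, ranged more widely. Taldo1, the transaldolase, was at 319 and 321 TPM, and Tkt, the transketolase, at 136 and 190 TPM. Rpe, the ribulose phosphate epimerase, was at 45.2 and 39.4 TPM. Rpia, the ribose phosphate isomerase, was the lowest at 3.18 and 4.56 TPM from 78.7 and 112 estimated reads. Taldo1 thus exceeded Rpia by a TPM ratio of 100 in library 1 and 70.4 in library 2. The transketolase value includes many reads on transcripts not annotated as coding: counted on protein-coding transcripts alone, Tkt exceeded G6pdx by a ratio of only 1.11 and 1.15, against 4.79 and 6.87 over all transcripts.

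Pyruvate enters the mitochondrion through a carrier made of MPC1 and MPC2. Mpc1 was at 174 and 157 TPM and Mpc2 at 63.2 and 65.5 TPM, so the partners of 1 complex differed by a TPM ratio of 2.76 and 2.40, or 5.12 and 4.90 on protein-coding transcripts. For the pyruvate dehydrogenase complex, the subunits of its first enzyme were close to each other: Pdha1, on the X chromosome, was at 127 and 138 TPM and Pdhb at 91.7 and 108 TPM. Dlat, the acetyltransferase core, was at 11.9 and 12.4 TPM, below Pdha1 by a ratio of 10.6 and 11.1. Dld, the dehydrogenase that this complex shares with the oxoglutarate dehydrogenase complex, was at 65.2 and 66.2 TPM. Pdk1, the kinase that inactivates the complex, was at 31.6 and 27.2 TPM.

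Pdk1 led the pyruvate dehydrogenase kinases only by the sum over all its transcripts. Pdk3, outside the list, was at 15.0 and 16.8 TPM, so Pdk1 was higher by a ratio of 1.62 to 2.10. On protein-coding transcripts alone the order was the opposite, with Pdk1 to Pdk3 ratios of 0.222 and 0.323.

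The citrate cycle opened with citrate synthase, Cs, at 109.6 and 119 TPM. Over all transcripts the 3 subunits of the NAD-dependent isocitrate dehydrogenase were at similar levels: Idh3a at 117 and 120.2 TPM, Idh3b at 99.8 and 120.3 TPM, and Idh3g, on the X chromosome, at 126 and 121 TPM. On protein-coding transcripts alone Idh3a was lower, at 27.8 and 21.98 TPM, against 91.4 and 113.9 for Idh3b and 89.7 and 84.3 for Idh3g. The NADP-dependent enzymes were far lower, with the mitochondrial Idh2 at 18.8 and 18.4 TPM and the cytosolic Idh1 at 10.3 and 10.4 TPM. Idh3a exceeded Idh2 by a ratio of 6.25 and 6.54, although only by 1.63 and 1.36 on protein-coding transcripts. Idh2 held 64.5% and 64.0% of the NADP-dependent pair.

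Ogdh, the first enzyme of the oxoglutarate dehydrogenase complex, was at 91.5 and 106 TPM. Succinate-CoA ligase joins the shared subunit from Suclg1, at 95.5 and 99.4 TPM, to a subunit that sets the nucleotide used. The GTP-specific subunit Suclg2 was at 18.7 and 24.7 TPM. Its ATP-specific counterpart Sucla2, which is not in the list and was added after its value was seen, was at 64.4 and 64.5 TPM, or 3.45 and 2.61 times Suclg2. Fh1, the fumarase, was at 60.8 and 64.7 TPM. The malate dehydrogenases were the most abundant genes of this arm, with the mitochondrial Mdh2 at 473 and 481 TPM and the cytosolic Mdh1 at 337 and 343 TPM. Their ratio was 1.40 in each library, though 1.05 and 1.06 on protein-coding transcripts.

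For most members the estimate rested on transcripts annotated as protein-coding, but not for all. The transcript that held the most TPM was protein-coding in both libraries for 41 members, and 31 members had 75% or more of their TPM on coding transcripts in both. In Slc2a1, Hk2, Hk3, Gpi1, Tkt, Pdk1 and Idh3a, 7 genes, the leading transcript was not protein-coding and coding transcripts held under 50% of the TPM in both libraries. Slc2a1-204, annotated as a target of nonsense-mediated decay, held 67.0% and 64.0% of the Slc2a1 TPM. Tkt-209, a processed transcript, held 50.6% and 54.7%, and coding transcripts held 21.4% and 15.7% of the Tkt TPM. Pdk1-208, also a processed transcript, held 51.0% and 54.5%, with 10.5% and 19.5% on coding transcripts.

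The remaining members of this group were of different kinds. Idh3a-204, annotated as a decay target, held 40.01% and 54.2% of the Idh3a TPM. In Gpi1 the decay target Gpi1-207 led with 38.4% and 28.0% of the TPM, yet coding transcripts held 53.6% and 53.4% of the estimated reads. Hk2-202, of 594 bases, led Hk2 by TPM with 56.4% and 59.3% although it held 14.5 and 12.2 of the gene's 127 and 96 reads. Hk3-204, a decay target, held 64.0% and 49.6% of the Hk3 TPM. Counting coding transcripts only lowered the mean TPM by over 1.5 times in these 7 genes and in Pfkp (92.2 to 53.7), Pfkfb3 (9.12 to 5.89), Mpc2 (64.3 to 32.6) and Fh1 (62.7 to 40.6). How well reads of 50 bases separate the transcripts of a gene was not tested.

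**Figure D3:**
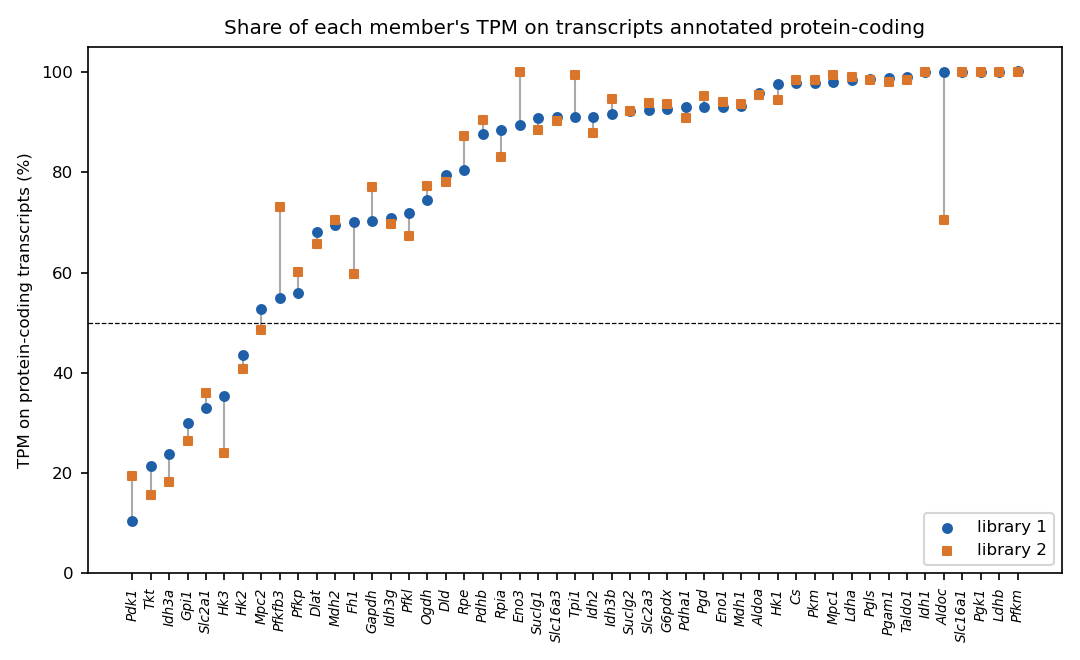
Percent of each member's TPM on transcripts annotated as protein-coding in library 1 (circles) and library 2 (squares), with members ordered by library 1 and a dashed line at 50%. Slc2a1, Hk2, Hk3, Gpi1, Tkt, Pdk1 and Idh3a lie under the line in both libraries and Mpc2 crosses it, while Aldoc, Pfkfb3, Hk3, Fh1 and Eno3 show the widest gaps between libraries.

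In 3 members the leading transcript differed between the libraries. In Eno3 a coding transcript of 1461 bases led in library 1 with 72.5% of the TPM and held 6.07% in library 2. Another of 1454 bases led in library 2 with 61.3% and had no reads in library 1. In Gapdh it was Gapdh-207 with 29.8% and Gapdh-201 with 37.6%. In Mpc2 it was a coding transcript with 52.8% and a processed transcript of 493 bases with 49.0%. Leading transcripts also held under 50% in at least 1 library for Pfkl (Pfkl-201, 46.4% and 49.1%), Pfkm (Pfkm-201, 94.9% and 39.9%), Pfkp (Pfkp-201, 48.5% and 51.9%), Pfkfb3 (Pfkfb3-220, 47.9% and 67.6%), Ogdh (Ogdh-201, 47.6% and 56.2%) and Fh1 (35.8% and 31.9%). Gene totals of reads were steadier than these shares: Eno3, for example, had 251 and 294 reads in all. Its gene TPM was further apart, at 16.2 and 23.6.

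Glycolytic genes are known for their many processed copies elsewhere in the genome. Other genes away from the locus shared 100 or more stretches of 50 bases with 14 of the 49 members, 109 genes in all, and 89 of those shared them with Gapdh. Of the 1223 stretches in Gapdh-201, 90.4% also occurred in another gene. The coding stretch of Gapdh printed here is the one that most other genes, 84 of them, hold without a difference, and a read from it cannot be assigned to any of them by sequence. It lies at chr6:125162898-125162947 on the minus strand.
Gapdh: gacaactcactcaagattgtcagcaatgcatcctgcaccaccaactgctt

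In the tables of estimated reads, copies took a modest part of most of these 14 genes. Eno1 had the largest: its copy Eno1b on chromosome 18, annotated as protein-coding, was given 4797 and 5540 reads beside 9280 and 10783 for Eno1, or 33.5% and 33.1% of the reads of Eno1 and its copies. With Eno1b counted in the family, Eno1 held 62.5% and 61.6% of the enolase TPM and no longer passed 75%. The 89 copies of Gapdh together held 25.1% and 25.4% of the reads, but none alone reached 10%. Mpc1-ps held 13.3% and 11.9% beside Mpc1, Gm15163 held 11.3% and 9.25% beside Suclg2, and Pgk1-rs7 held 8.62% and 11.1% beside Pgk1. All copies of Pgk1 together held 9.05% and 15.2%, and its copy Gm5537 was given 0 reads in library 1 and 127.6 in library 2. In the other 9 genes the copies summed to at most 5.46%, in Pgam1. The deposited posterior SD of the read estimate was 135 and 127 reads for Eno1, the highest of the members, 46.0 and 53.5 for Pgk1, and at most 17.0 for the rest.

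The second deposited gene table, of whole-number counts on GENCODE M4, gave very different values for members with copies. Pgam1 had 1 and 1 counts there against 967 and 918 estimated reads, Pgk1 26 and 22 against 2594 and 2646, and Gapdh 48 and 43 against 2199 and 1998. Eno1 had 414 and 424, and Mpc1 had 104 and 87 against 1821 and 1592. Over the 14 members with copies, the whole-number count was a median of 14.6% and 15.4% of the estimated reads, and over the other 35 it was 49.3% and 52.6%. Members with copies were not the only genes affected: Hk2, with no such copy, had 12 and 8 counts against 127 and 96 reads. Aldoa, not among the 14, had 1811 and 1792 against 9621 and 10063. Of the stretches in its leading transcript, however, 13.9% also occurred in another gene. The highest whole-number count of any gene was 7120 in library 1 and 7078 in library 2. No source used here says how this table was counted, and the causes of the gaps were not tested.

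**Figure D4:**
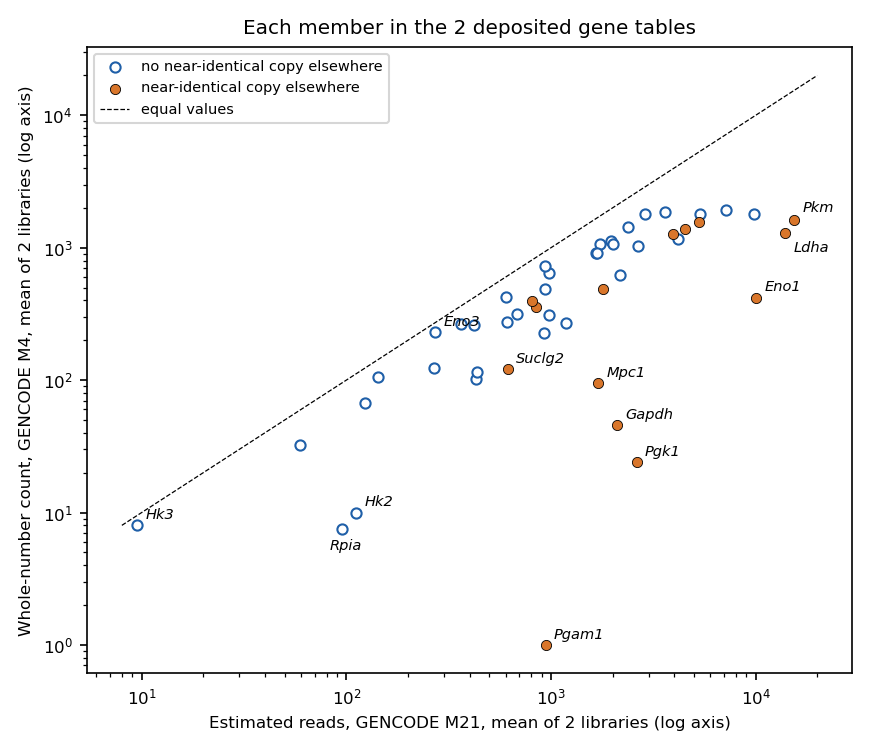
Each member's whole-number count on GENCODE M4 against its estimated reads on GENCODE M21, both as means of the 2 libraries on log axes, with filled points for the 14 members that have a near-identical copy elsewhere and a dashed line at equal values. No member lies above the line, and Pgam1, Pgk1, Gapdh, Mpc1 and Eno1 lie farthest under it.

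Overlapping genes touched another set of members. In 10 of them a gene at the same locus shared 100 or more stretches, since its exons overlap, and no source used here says whether the reads keep their strand. The overlapping genes with the most reads were Ikbkg beside G6pdx, with 1206 and 1327 reads against 824 and 798, and Pitrm1 beside Pfkp, with 1018 and 910 reads against 2224 and 2559. Ikbkg shared 326 stretches with G6pdx, and Pitrm1 shared 699 with Pfkp. How many of these reads fall in the shared stretches was not tested. The deposited posterior SD was 1.52 and 1.1 reads for G6pdx and 4.29 and 4.47 reads for Pfkp.

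Although both libraries came from 1 sample, they differed in 18 of the 49 members by a two-sided exact binomial test that set each gene's split of reads beside the 49.3% of gene reads in library 2, with Benjamini-Hochberg adjustment over all 17271 genes tested at 0.05. That test allows for counting error only, and by it 24.3% of all genes tested differed. Of the members, 16 were higher in library 2, against 12.7% of all genes, and 2 were higher in library 1, against 11.6%. Glycolysis had 10 of its 23 members higher in library 2 and none higher in library 1. The counts were 2 and 1 for the pentose phosphate pathway, 1 and 1 for pyruvate entry, and 3 and 0 for the citrate cycle. Among genes with 100 reads or more the same test called 32.8% of all genes and 19 of 48 members.

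The differences were small. None of the 18 members differed by as much as 1.5-fold. Pkm, with the most reads, was estimated at 13253 reads in library 1 and 17516 in library 2, a log2 ratio of 0.45 scaled to all gene reads (exact binomial test, adjusted p = 2.293e-156). Tkt was at 2480 and 3259 reads, a log2 ratio of 0.44, and Pfkl at 835 and 1117 reads, a log2 ratio of 0.46. The others higher in library 2 were Slc2a1, Slc2a3, Hk1, Gpi1, Pfkp, Aldoa, Eno1, Ldhb, Pgd, Pdhb, Idh3b, Ogdh and Suclg2, at log2 ratios from 0.11 for Aldoa to 0.39 for Suclg2. Rpe, at 1270 and 1104 reads, and Mpc1 were higher in library 1, at log2 ratios of -0.16 and -0.15.

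Ldha, the most abundant member, did not pass the test, with 14017 and 13887 reads and a log2 ratio of 0.03 (exact binomial test, adjusted p = 0.2235). The larger ratios among the 31 members that did not pass belonged to genes with few reads, such as Slc16a3 at -0.62 and Rpia at 0.53. With the spread set to a coefficient of variation of 0.1 in place of counting error alone (edgeR's exact test at a dispersion of 0.01), none of the 49 members passed, against 2.85% of all genes. At an unadjusted p under 0.05 that test had 3 members, Pfkl, Pkm and Tkt. In the whole-number table the same binomial test called 9 members, all higher in library 2 and 8 of them among the 18, against 9.86% of its genes. The call was lost there for Pkm, Slc2a3, Gpi1, Aldoa, Eno1, Ldhb, Pgd, Rpe, Mpc1 and Pdhb, and Aldoc was added. The direction of Aldoa turned there, to a log2 ratio of -0.01.

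Base composition differed in its medians between the directions of these differences. The leading transcripts of the 16 members higher in library 2 had a median GC content of 53.9% (46.0% to 57.7%), and those of the 2 members higher in library 1, Rpe and Mpc1, had 39.0% and 45.0%. Those of the 31 members not called had a median of 51.9% (40.65% to 65.4%). Among all protein-coding genes with 100 reads or more the medians were 52.4% for 1739 genes higher in library 2, 45.8% for 1317 genes higher in library 1 and 49.3% for the rest. The ranges overlapped widely, from 34.98% to 64.2% for the genes higher in library 2 and from 31.86% to 67.9% for those higher in library 1. The part of base composition in the result was not tested.

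**Figure D5:**
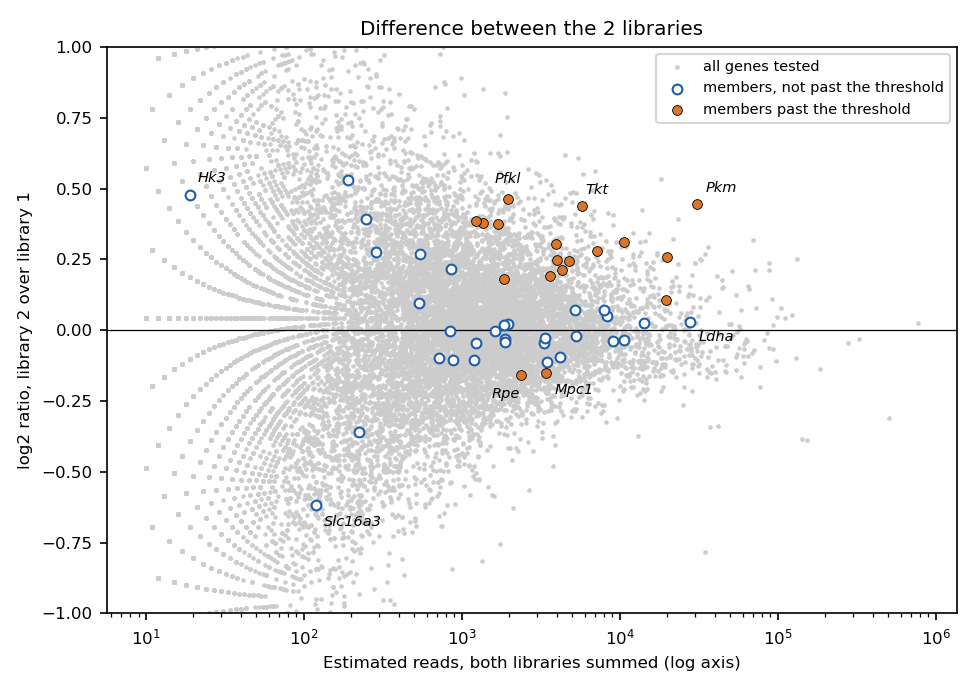
Log2 ratio of library 2 over library 1 against summed estimated reads (log axis) for all genes tested (grey) and for the 49 members, filled where past the threshold of the binomial test; 2013 of 17271 genes tested lie beyond the axis limits of -1 and 1. Filled points lie mostly above 0 and none reaches 0.5, and the widest open points are at low reads.

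Other genes of these pathways were taken from 7 lists with 81 genes. Of them 53 were at 1 TPM or more in both libraries, 32 at 10 or more and 5 at 100 or more. Of the 56 with enough reads to test, 14 were higher in library 2 and 7 in library 1 by the binomial test, beside 12.7% and 11.6% of all genes tested. Among other transporters the highest was Slc2a9, the urate carrier, at 8.55 and 8.79 TPM, followed by Slc2a8 and Slc2a6 at means of 2.02 and 1.46 TPM. Among other glycolytic isozymes and enzymes of gluconeogenesis, Eno1b was at 227 and 278 TPM, G6pc3, the ubiquitous glucose 6-phosphatase, at 18.6 and 20.7 TPM, and Bpgm, which makes 2,3-bisphosphoglycerate, at 12.7 and 25.2 TPM. Of the 81 genes, 8 had no reads, among them G6pc and Pck1 of liver gluconeogenesis, named after their values were seen.

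Other pentose phosphate genes were led by Prps2 and Prps1, which convert ribose 5-phosphate to the precursor of nucleotides, at 59.2 and 48.3 TPM and at 36.2 and 35.5 TPM. Rbks, the ribokinase, followed at 12.8 and 11.4 TPM. In pyruvate entry the highest after Pdk3 were Pdp2, a phosphatase that reactivates the complex, at 12.9 and 15.7 TPM, and Pdhx, its binding subunit, at 15.0 and 11.5 TPM. The citrate cycle's 8 other genes were all at 10 TPM or more. Sdhb, the iron-sulfur subunit of succinate dehydrogenase, was at 243 and 252 TPM, the flavoprotein Sdha at 194 and 208 TPM, and the membrane anchor Sdhd at 133 and 124 TPM, so that 3 of the 4 subunits were above 100 TPM in both libraries.

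Among the 11 regulators, Txnip, which restrains glucose uptake, was the highest at 246 and 262 TPM. Myc, a transcription factor known to drive glycolytic genes in activated T cells, was at 70.8 and 87.6 TPM. Hif1a, the oxygen-regulated factor that shares many of these targets, was at 58.6 and 54.1 TPM. By the exact binomial test Myc was higher in library 2 and Hif1a in library 1, at log2 ratios of 0.26 and -0.14.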

How the data were processed

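The 2 libraries were quantified on mm10. Per the file headers, the authors deposited for each library an expected count (estimated reads), a TPM and an isoform percent per gene or transcript on GENCODE M21, with a posterior SD of the count. A further deposited table holds whole-number counts on GENCODE M4. Tools and filters: not given in the sources used here. Rows naming no gene (0.142% and 0.186% of reads) were left out of tests. Expected counts were rounded, and genes with a summed count of 10 or more entered a two-sided exact binomial test, Benjamini-Hochberg adjusted at 0.05. Log2 ratios add 0.5 to each count. The test was tested on simulated Poisson libraries. These hold counting error only, as the test assumes, so they cannot show how it behaves under wider spread. A gene was a copy of a member if it shared 100 or more 50-base stretches on either strand, a definition set after seeing the data. Limits for genes without reads are the TPM of 3 reads and, like the tests, cover counting error only. The members, lists and tests were chosen with earlier results of these data known. Genes outside the list were named if among the 3 highest of their list or in a member's family, except where said; some of these are not reported here. Alternatives used edgeR 4.0.16 and DESeq2 1.42.0 (R 4.3.3). Other steps used Python with pandas and scipy.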

Additional observations from a re-analysis of the deposited data

How the results depend on the processing

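No paired analysis was possible because both libraries belong to 1 group. The count of 18 members that differed between the libraries was 18 with TMM or DESeq2 scaling (24.2% and 24.3% of all genes), 16 without a filter (12.4%) and 19 at a summed count of 100 or more (32.8%). It was 0 with edgeR's exact test at a dispersion of 0.01 (2.85%) and 9 in the whole-number table (9.86%). In that table the log2 ratio reversed for Aldoa, which had passed, to -0.01, and for 4 members that had not: Pfkfb3 to -0.13, Pgk1 to -0.23, Rpia to -0.55 and Pdk1 to -0.21. G6pdx and Dlat changed sign with TMM and DESeq2 scaling, to 0.00 after rounding. For these reversals the cause was not tested. Of 292 log2 ratios of single members under an alternative, 29 lost the threshold, 2 gained it and 9 reversed. On coding transcripts only, the medians of log2(TPM + 1) moved to 5.59 over all members, 5.07 for the pentose phosphate pathway, 5.72 for pyruvate entry and 6.34 for the citrate cycle, and 26 of 49 mean levels moved by more than their SD. A pseudocount of 0.1 put pyruvate entry at 6.04. Leaving out each library in turn gave 16 to 20 members at 100 TPM or more, 4 to 5 families with a leading isozyme and a Pkm M2 share of 95.8% to 97.2%. On coding transcripts only, fewer than 16 members were at 100 TPM or more in both libraries. Those that fell under it were Gpi1 (86.9 and 93.4 TPM), Tkt (29.2 and 29.7), Idh3a (27.8 and 21.98) and Idh3g (89.7 and 84.35). Counting Pkm-203, a retained-intron transcript whose last exon begins with the M1 exon, as M1 (chosen after seeing the data) gave 95.1%. The 2 technical libraries of 1 sample limit the precision, and low members such as Hk3 rest on few reads.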

Other observations

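Genes that link glycolysis and the citrate cycle to other routes were also present. Slc25a11, the oxoglutarate carrier, was at 60.8 and 70.2 TPM. Got2, the mitochondrial aspartate aminotransferase, was at 50.4 and 61.4 TPM, and its cytosolic partner Got1 at 28.0 and 34.4 TPM. With Mdh1 and Mdh2 these are the parts of the malate-aspartate shuttle that were among the listed genes. That shuttle carries reducing equivalents into the mitochondrion, and its unlisted genes were not looked at. Me2, the mitochondrial malic enzyme, was at 54.1 and 57.2 TPM, while the cytosolic Me1 had no reads (a limit of 0.126 and 0.133 TPM at 3 reads). Gpd1, the cytosolic enzyme of the glycerol phosphate shuttle, had 4 and 2 reads, although its mitochondrial partner Gpd2 was at 11.03 and 11.99 TPM. Got1, Me1, Gpd1 and Gpd2 were named after their values were seen.

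Glutamate and citrate use were likewise measured. Glud1, the glutamate dehydrogenase, was at 37.9 and 34.2 TPM. Acly, which splits exported citrate into acetyl-CoA, was at 43.2 and 50.8 TPM, but Slc25a1, the mitochondrial citrate carrier, only at 4.78 and 7.72 TPM. Pdk2, a further pyruvate dehydrogenase kinase, had 52 reads in library 1 and 139 in library 2, a log2 ratio of 1.45 (exact binomial test, adjusted p = 2.725e-09), and its coding transcripts held 83.4% and 60.1% of its TPM. In the whole-number table the gap was smaller, at 41 counts for Pdk2 in library 1 and 63 in library 2. These 4 genes were also named after their values were seen.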
